A study of Macaca mulatta with 11 samples.

Results

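The comparison concerned 7 of the 11 arrays of a series on marrow stromal cultures of rhesus monkeys (Macaca mulatta), the 4 titled fetal and the 3 titled adult, which were selected by title. The donors of fetal arrays 1 and 2 were at gestation day 120. Those of fetal arrays 3 and 4, although titled fetal, were newborn. Adult arrays 1, 2 and 3 came from donors aged 7, 7 and 8 years. The 4 remaining arrays, titled infant and taken from donors aged 3 to 6 months, entered the statistical fit only to estimate the spread and are shown as a reference. No culture received a treatment. All cultures were grown from gradient-enriched mononuclear cells that stuck to plastic in medium with fetal bovine serum, and cells were collected at passage 2 before they became confluent. Marrow of the fetal and newborn donors was flushed out of long bones when tissue was harvested, and marrow of the adults was aspirated under anaesthesia, so that age and collection method cannot be told apart. Each culture gave 1 array. Since no label says that cultures of one age derived from separate animals, the p-values refer to the spread among these cultures alone.

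Mesenchymal stromal cells are the fibroblast-like adherent cells of marrow that can form bone, cartilage and fat cells, lay down extracellular matrix and release factors that act on blood-forming cells. Fetal bone is growing and lays down new matrix, whereas adult marrow is a mature tissue. In culture such cells also assemble actin bundles and express many genes of smooth muscle, so that contractile genes are part of their usual profile. The RNA was read by probe sets annotated with human genes, and a level therefore also depends on how well the probes match the monkey sequence. Values are log2 of the deposited intensity, on which a difference of 1 is a factor of 2, and they were compared between arrays for the same probe set, never between probe sets.

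Surface genes used to define stromal cells were read in both groups and were not called. ENG, the endoglin receptor, lay between 8.93 and 9.21 in the fetal and between 8.76 and 9.17 in the adult arrays. THY1, a surface glycoprotein, lay between 8.28 and 8.47 and between 8.06 and 8.32. NT5E, an ecto-enzyme, lay between 6.70 and 7.20 over the 7 arrays, which is dim, being below the median of all values at 7.38. CD14 and PTPRC, markers of monocytes and of leukocytes in general, did not pass the test either (limma adjusted p = 0.828 and 0.930). Array medians of the deposited intensity lay between 164.9 and 169.7 over the series. Precision depends on how few arrays there were. Correlations across probe sets were between 0.963 and 0.983 among fetal arrays, between 0.934 and 0.966 among adult arrays and between 0.941 and 0.962 across the groups. The root mean square deviation from the group mean was 0.120 to 0.168 for fetal arrays and 0.165, 0.177 and 0.221 for adult arrays 1 to 3, so that the adult arrays were the less even group. Adult arrays 1 and 2 lay at -18.7 and -20.5 on the leading principal component (23.1% of variance), and adult array 3 lay at 19.5, beyond the fetal arrays at 6.70 to 11.9. The infant arrays were divided as well, with arrays 1 and 2 at -19.6 and -16.1 and arrays 3 and 4 at 9.51 and 10.1. This component therefore did not follow age.

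Fetal and adult cultures differed in 29 of 22215 probe sets, which is 0.131% of all, at a Benjamini-Hochberg adjusted p below 0.05 in limma. These are termed called below. Of these, 14 were higher and 15 lower in the fetal arrays, and the split was 10 higher and 17 lower when the values were quantile-normalised again. They named 25 genes, 12 that rose and 13 that fell, while 1 further probe set carried several symbols and 2 were unnamed here. The sizes ran from 0.66 to 3.53 on the log2 scale, and 19 of the 29 were at least 2-fold. The arrays of the groups did not overlap for any of the 29, and they did not overlap for 1794 probe sets in all. With each of 11963 genes represented by its brightest probe set, 22 genes or 0.184% were called, 506 genes or 4.23% lay apart with the fetal arrays higher and 511 genes or 4.27% lay apart with the fetal arrays lower. The median difference over all these genes was -0.00034, and 5968 of them were higher in the fetal mean. The count of calls depended on single arrays. It was 7, 4, 9 and 120 without fetal array 1, 2, 3 or 4, and 4, 4 and 153 without adult array 1, 2 or 3. Both called probe sets of CHI3L1 and that of MFAP5 were called in all 7 of these fits, that of AKR1B10 in 6, those of SULF1 and CNN1 in 4, those of NTRK2, ACTG2 and CDH2 in 3, and the other 17 in 2 each. The 2 fits that called every one of them were those without fetal array 4 and without adult array 3.

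**Figure D1:**
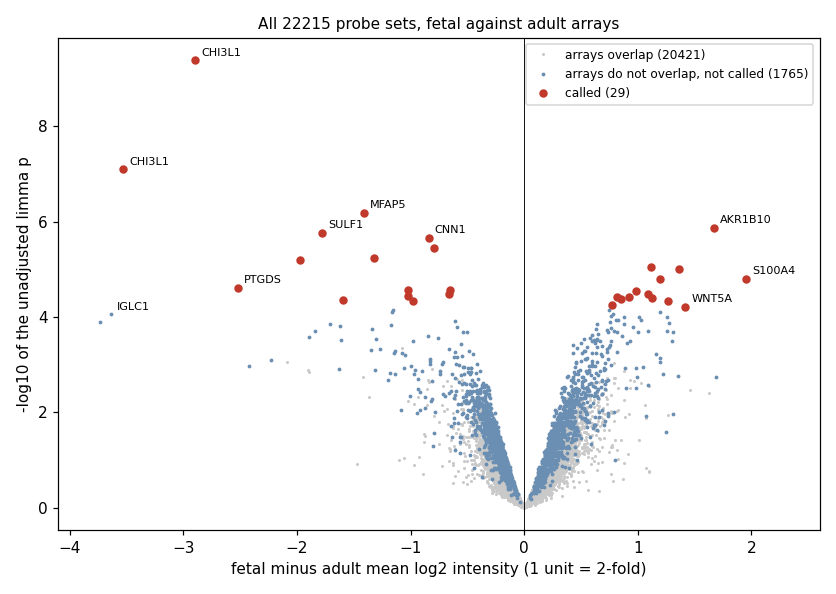
Difference between the fetal and adult means of log2 intensity (x axis) against -log10 of the unadjusted limma p (y axis) for all 22215 probe sets. The 29 called probe sets (red) reach -3.53 on the lower and 1.95 on the higher side, and most of the 1794 probe sets whose arrays do not overlap (red and blue) were not called.

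The widest separation was in CHI3L1, which was lower in the fetal cultures. It encodes a chitinase-like glycoprotein that cartilage cells and macrophages secrete. Its brightest probe set read 9.16, 9.77, 9.83 and 10.01 in fetal arrays 1 to 4 and 12.39, 12.66 and 12.73 in adult arrays 1 to 3. The highest fetal array lay 2.38 below the lowest adult array, and the fetal mean was 7.46-fold lower (difference -2.90, 95% interval -3.30 to -2.49, limma adjusted p = 9.1e-06). The second called probe set of CHI3L1 read 7.40, 7.82, 8.14 and 8.72 against 11.14, 11.06 and 12.45, a gap of 2.35. In both probe sets the gestation day 120 arrays were the lowest and the newborn arrays lay above them. Another, dimmer probe set of CHI3L1 overlapped between the groups (limma adjusted p = 0.324). PTGDS, the enzyme that makes prostaglandin D2 and a carrier of small lipids, read 8.76, 9.17, 9.34 and 10.27 against 11.34, 12.05 and 12.32 (difference -2.52, interval -3.39 to -1.64, limma adjusted p = 0.0372). Fetal array 4 was the closest to the adults, at a distance of 1.07, a gap level with that of S100A4 on the higher side (1.06). The other probe sets of PTGDS were apart too, with gaps of 0.33 and 0.36, and were not called. PTGDS was the only called gene of 23 measured genes of prostaglandin synthesis and reception, beside 0.184% of all genes. Of the 23 genes 13 were higher in the fetal mean. Intervals here and below are 95% intervals of single differences and are not adjusted for the number of probe sets.

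**Figure D2:**
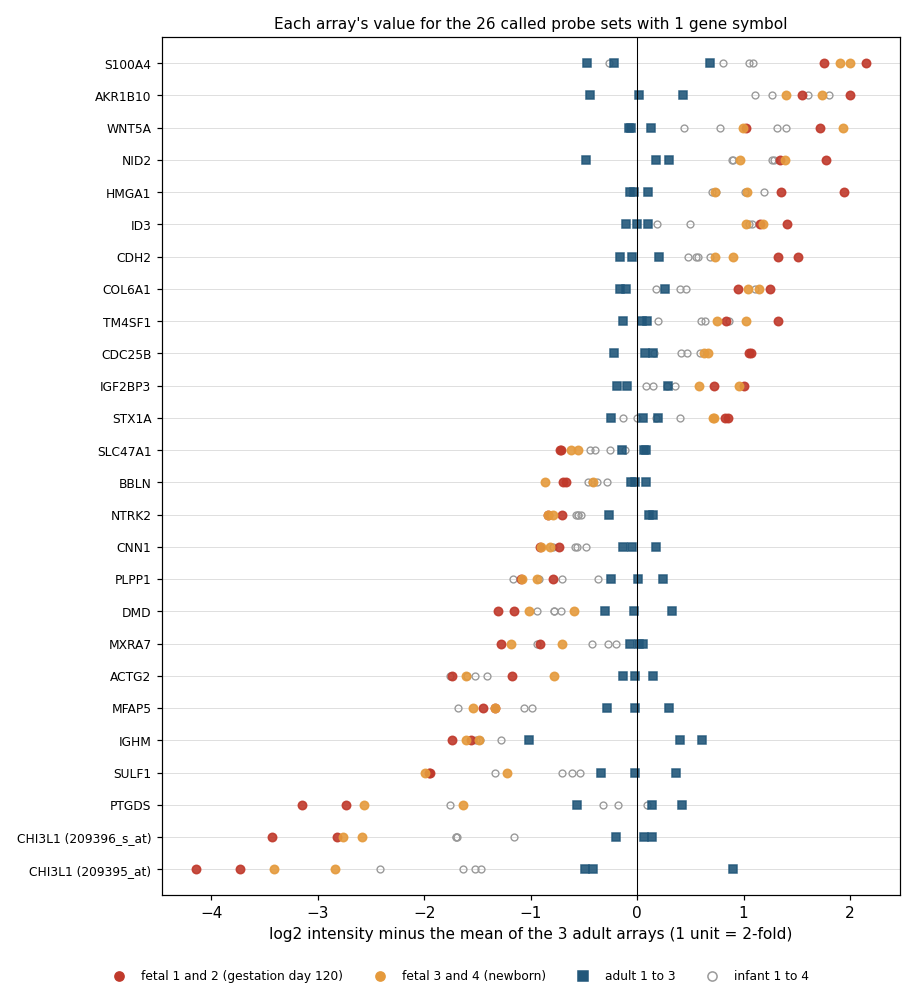
Log2 intensity of each array minus the mean of the 3 adult arrays (x axis) for the 26 called probe sets with 1 gene symbol (y axis). Red and orange circles are the gestation day 120 and newborn arrays titled fetal, blue squares the adult and open grey circles the infant arrays. No fetal array crosses into the adult range, and the infant mean lies between the other means for 25 of the 26, the exception being ACTG2.

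The function lists were chosen with earlier results of these data known. They hold 1005 of the 11963 genes and 20 of the 22 called among these, so that a share called within any list is a description only. The list of elastic fibres and microfibrils also holds MXRA5, MXRA7 and MXRA8, which are named for matrix remodelling. Of its 21 measured genes 9 were higher and 12 lower in the fetal mean. Among these, 2 were called, both lower, beside 0.184% of all genes. MFAP5, a glycoprotein of the microfibrils that carry elastin, read 7.13, 7.24, 7.04 and 7.24 in the fetal and 8.88, 8.30 and 8.56 in the adult arrays. All fetal values were below the median level of all probe sets, so that the fold of 2.66 may understate the change (limma adjusted p = 0.00489). The other MFAP5 probe sets overlapped between the groups (differences -0.13 and -0.39). MXRA7, named for its association with matrix remodelling, read 10.35, 9.98, 10.09 and 10.56 against 11.28, 11.20 and 11.32 with an adult SD of 0.06 (limma adjusted p = 0.0381). EMILIN1, an elastic fibre glycoprotein, went the other way at 9.84, 9.92, 9.74 and 9.51 against 8.37, 8.78 and 9.12, without overlap and without passing (limma adjusted p = 0.195). SULF1, an extracellular enzyme that trims sulfate groups from heparan sulfate and so alters the binding of growth factors, read 7.68, 7.66, 7.62 and 8.39 against 9.60, 9.98 and 9.27. Fetal array 4 stood above the other fetal arrays but below all adult arrays (difference -1.78, interval -2.26 to -1.29, limma adjusted p = 0.00768). Of the other SULF1 probe sets, one lay apart by 0.07 without passing and one overlapped (differences -1.18 and -0.12). SULF1 was the only call among 17 heparan sulfate enzymes, beside 0.184% of all genes.

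Collagens and their enzymes were divided rather than shifted as a group. COL6A1, a chain of the filament-forming collagen VI, rose to 10.68, 10.38, 10.47 and 10.57 in the fetal arrays from 9.32, 9.27 and 9.69 in the adult arrays (difference 1.09, interval 0.70 to 1.48, limma adjusted p = 0.0381). COL6A2, its partner chain, read 10.73, 10.39, 10.16 and 10.63 against 8.99, 9.20 and 9.48, a gap of 0.68 like that of COL6A1, and missed the threshold (difference 1.26, limma adjusted p = 0.0571). Other, dimmer probe sets of COL6A1 overlapped between the groups. Both chains were highest in fetal array 1 and higher in adult array 3 than in the other adult arrays. Of 19 collagens outside the fibrillar group 4 lay apart above the adults, the others being COL16A1 and COL7A1, and COL15A1 lay apart below, beside 4.23% and 4.27% of all genes. None of 9 fibrillar collagens was called or lay apart. NID2, a nidogen that links laminin with collagen IV in basement membranes, rose to 10.36, 10.79, 10.40 and 9.98 from 9.19, 9.32 and 8.54 (difference 1.36, interval 0.93 to 1.80, limma adjusted p = 0.0198). The laminin chain LAMA2 was lower by 0.97 and LAMB1 higher by 0.57 in the fetal mean, each without overlap and without passing (limma adjusted p = 0.0835 and 0.157).

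Enzymes that process collagen split in the same manner, with none of 17 called. LOX, the copper enzyme that crosslinks collagen and elastin, read 9.07, 9.52, 9.69 and 9.24 in the fetal and 11.12, 10.58 and 11.58 in the adult arrays. The gap of 0.88 was as wide as that of SULF1, but the adult SD was 0.50 and the gene was not called (difference -1.71, limma adjusted p = 0.0646). PLOD2, a lysyl hydroxylase that sets the sites of crosslinks, read 9.79, 9.98, 9.98 and 9.88 against 10.67, 10.35 and 10.69 (limma adjusted p = 0.102). Higher in every fetal array than in every adult array were LOXL1, a relative of LOX, the procollagen protease enhancer PCOLCE and the collagen chaperone SERPINH1, by 0.44, 0.68 and 0.43 in the mean (limma adjusted p = 0.245, 0.259 and 0.271). BMP1, a procollagen protease, lay apart below the adults with LOX and PLOD2. Thus 3 members lay apart above and 3 below, beside 4.23% and 4.27% of all genes. Over the 17 genes the median difference was 0.095, and 12 were higher in the fetal mean.

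Contractile genes were lower in the fetal cultures in 20 of 26 measured members, with a median of -0.35 beside -0.00034 over all genes. CNN1, the smooth muscle calponin that binds actin, fell to 8.18, 8.00, 8.09 and 8.01 from 9.09, 8.87 and 8.78 with tight values in both groups (difference -0.84, interval -1.07 to -0.61, limma adjusted p = 0.00815). ACTG2, the gamma actin of smooth muscle, fell to 8.03, 8.60, 8.99 and 8.16 from 9.92, 9.63 and 9.75 (difference -1.32, interval -1.72 to -0.92, limma adjusted p = 0.0160). The adult arrays were close together for ACTG2, and fetal array 3 was nearest to them. These 2 were the only calls in the list, beside 0.184% of all genes called. In all, 9 members lay apart below the adults, beside 4.27% of all genes, and 1 above. In the 7 fits that left out 1 array the median stayed between -0.39 and -0.33.

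The other 7 contractile genes that lay apart below the adults were MYL9, TAGLN, MYLK, TPM2, LMOD1, TPM1 and CALD1, and none passed (limma adjusted p from 0.0829 to 0.343). MYLK, the kinase that activates smooth muscle myosin, read 8.76, 8.28, 8.56 and 9.62 against 9.80, 9.96 and 10.59. TAGLN, the actin-binding transgelin, read 13.15, 13.47, 13.36 and 14.14 against 14.28, 14.20 and 14.27. TPM1, a tropomyosin, read 10.93, 11.09, 11.35 and 11.38 against 11.97, 11.80 and 12.26. For MYLK and TAGLN, but less for TPM1, fetal array 4 came close to the adult range. ACTA2, the alpha actin of smooth muscle, read 10.79, 11.84, 11.80 and 12.76 against 13.02, 12.73 and 12.56, so that fetal array 4 lay inside the adult range (limma adjusted p = 0.304). TAGLN2, a transgelin of nonmuscle cells, was the member that lay apart above the adults, at 12.02, 11.74, 11.55 and 11.32 against 10.90, 10.77 and 11.10 (limma adjusted p = 0.133). A list of serum response factor, myocardin, TEAD and YAP factors with some target genes had 12 measured members. None of these was called or lay apart.

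Cell surface and adhesion genes included rises in CDH2 and TM4SF1. CDH2, the neural cadherin that joins stromal cells to each other, rose to 9.06, 8.88, 8.45 and 8.28 from 7.76, 7.39 and 7.50 (difference 1.12, interval 0.76 to 1.47, limma adjusted p = 0.0198). The gestation day 120 arrays were the highest. TM4SF1, a membrane protein of the tetraspanin-like L6 family, rose to 8.66, 9.15, 8.85 and 8.57 from 7.69, 7.92 and 7.87 (limma adjusted p = 0.0372). Of its other probe sets 1 lay apart and none passed, with differences of 0.55, 0.73 and -0.14. CDH6, a further cadherin, read 9.74, 9.24, 8.90 and 8.29 against 7.73, 7.75 and 7.71, where the adult arrays were almost identical and the fetal arrays were spread (limma adjusted p = 0.0697). The brightest probe set of CDH6 is another one, which overlapped between the groups and was not called. PCDH7, a protocadherin, read 8.98, 9.14, 8.99 and 8.55 against 8.17, 8.11 and 8.05 (limma adjusted p = 0.0614). JAM2, a junctional adhesion molecule of the immunoglobulin superfamily, was lower at 7.24, 7.66, 7.92 and 8.46 against 9.52, 8.79 and 10.66, with uneven values in both groups (limma adjusted p = 0.0697). Of 12 cadherins and catenins 8 were higher in the fetal mean, and 2, PCDH7 and CDH2, lay apart above the adults, beside 4.23% of all genes. Lists are counted on the brightest probe set of each gene, so that the calls of CDH2, NTRK2 and IGHM on other probe sets do not enter them.

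Signalling genes were called singly. WNT5A, a ligand of noncanonical WNT signalling, rose to 8.86, 9.55, 8.83 and 9.77 from 7.78, 7.97 and 7.76, with the high and low fetal values falling in both stages (difference 1.42, interval 0.88 to 1.96, limma adjusted p = 0.0466). A dimmer probe set of WNT5A lay apart by 0.07 without passing (difference 0.53, limma adjusted p = 0.275). WNT5A was the only call of 31 WNT pathway genes, beside 0.184% of all genes called. Of the 31 genes 14 were higher in the fetal mean. The receptor gene FZD2 read 8.04, 8.87, 8.32 and 7.94 against 7.48, 7.57 and 7.70, and the secreted inhibitor DKK1 read 9.46, 10.05, 9.68 and 8.84 against 8.36, 8.36 and 8.59. Both lay apart and neither passed (limma adjusted p = 0.222 and 0.372). The receptor gene FZD1 and the ligand gene WNT4 lay apart below the adults (limma adjusted p = 0.311 and 0.349). Over all genes 4.23% lay apart above and 4.27% below. ID3, a partner of helix-loop-helix factors that blocks their binding to DNA and a usual target of BMP signalling, rose to 8.44, 8.19, 8.21 and 8.05 from 7.13, 7.03 and 6.93. Both groups were tight, and the gap of 0.92 was 77.1% of the difference of 1.20 (limma adjusted p = 0.0273). ID1 was higher by 0.47 without overlap, and FST, a secreted binder of activin and BMPs, by 1.09 (limma adjusted p = 0.304 and 0.228). RBPJ, the DNA-binding partner of Notch, read 11.22, 10.67, 10.64 and 10.57 against 9.61, 9.84 and 9.79, and SMAD3, which carries TGF-beta signals to the nucleus, read 9.54, 9.46, 9.46 and 9.72 against 8.78, 8.81 and 9.24 (limma adjusted p = 0.0614 and 0.0768).

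Receptors pointed in both directions. NTRK2, the receptor of brain-derived neurotrophic factor, fell to 6.72, 6.59, 6.59 and 6.64 from 7.54, 7.58 and 7.16 on a dim probe set, while its brightest probe set differed by 0.01 (limma adjusted p = 0.0114 and 0.992). BDNF, the ligand, read 7.82, 8.04, 7.76 and 8.19 against 7.17, 7.35 and 7.50, without overlap (limma adjusted p = 0.300). DMD, the dystrophin that ties actin to the membrane, fell to 6.86, 6.71, 7.00 and 7.43 from 8.35, 8.00 and 7.73 (limma adjusted p = 0.0372). Its gap of 0.30 was 29.0% of the difference, the smallest such share among the called probe sets, since fetal array 4 and adult array 3 lay close to each other. The other DMD probe sets overlapped (differences -0.22 and -0.13). PDGFRA, the platelet-derived growth factor receptor alpha of mesenchymal cells, read 10.07, 10.12, 9.55 and 9.46 against 8.72, 8.82 and 9.0, and the gestation day 120 arrays were the highest (limma adjusted p = 0.0681). CD44, the receptor of hyaluronan, read 9.82, 9.86, 9.75 and 9.34 against 9.07, 9.29 and 9.07, with a gap of 0.05. Of 25 growth factor receptors and ephrins 17 were higher in the fetal mean and none was called. PDGFRA, EFNB2 and EPHA2 lay apart above the adults, beside 4.23% of all genes.

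Genes linked to fetal growth included 2 calls among 21 measured, both higher, beside 0.184% of all genes called. Of the 21, 6 lay apart above the adults, beside 4.23% of all genes, and none below. HMGA1, an architectural protein of chromatin that is abundant in embryonic tissue, rose to 10.99, 10.40, 10.09 and 9.78 from 9.16, 9.02 and 8.98 (difference 1.26, interval 0.80 to 1.73, limma adjusted p = 0.0389). IGF2BP3, an RNA-binding protein of fetal tissue, rose to 7.72, 7.44, 7.30 and 7.67 from 7.00, 6.53 and 6.62 (limma adjusted p = 0.0381). The other probe set of HMGA1 overlapped between the groups (difference 0.08, limma adjusted p = 0.909), as did those of IGF2BP3 (differences 0.18 and 0.05). HMGA2, the relative of HMGA1, read 8.32, 9.52, 8.71 and 7.41 against 7.22, 7.00 and 7.17, so that fetal array 4 lay only just above the adults (limma adjusted p = 0.194). The imprinted MEG3 and PLAGL1 and IGF2BP2, a relative of IGF2BP3, completed the 6. LIN28A and DLK1, further genes of fetal cells, differed by -0.03 and 0.01 at dim levels. The list's mean deviation from the 11-array mean was positive in all 4 fetal arrays, from 0.097 to 0.21, and negative in all 3 adult arrays, from -0.18 to -0.14. Its median difference was 0.092, and 14 of 21 members were higher. The median was 0.16 without fetal array 1, 0.15 with the newborn arrays alone and 0.20 with adult arrays 1 and 2 left out. When the values were quantile-normalised again it was 0.054, with 13 members higher and 8 lower.

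CDC25B, the phosphatase that switches on the mitotic kinase, rose to 9.12, 9.14, 8.70 and 8.73 from 7.85, 8.22 and 8.14 (difference 0.85, interval 0.54 to 1.16, limma adjusted p = 0.0389). It was the only call of 43 mitosis genes, beside 0.184% of all genes. The checkpoint kinase BUB1B and the spindle protein SPAG5 were the other members that lay apart, beside 4.23% of all genes. Of the 43 genes 34 were higher in the fetal mean, with a median of 0.21, and of 41 DNA replication genes 31 were higher, with a median of 0.15 and no call. Both rested on 3 arrays. The mitosis list had mean deviations of 0.30, 0.30 and 0.31 in the first 3 fetal arrays but of -0.21 in the last, beside -0.055, -0.052 and -0.22 in the adults. CDC20, an activator of the anaphase ligase, read 10.14, 10.11, 10.21 and 8.12 against 8.28, 8.64 and 8.23, and fetal array 4 was below every adult array. Without fetal array 4 the median of the mitosis list was 0.34 and that of the replication list 0.26. Of 19 cell cycle inhibitors and p53 targets 17 were higher in the fetal mean as well, with a small median of 0.080 and no call. When single arrays were left out, 12 to 16 of the 19 were higher, the fewest without fetal array 4, and the median was 0.12 without adult array 1.

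**Figure D3:**
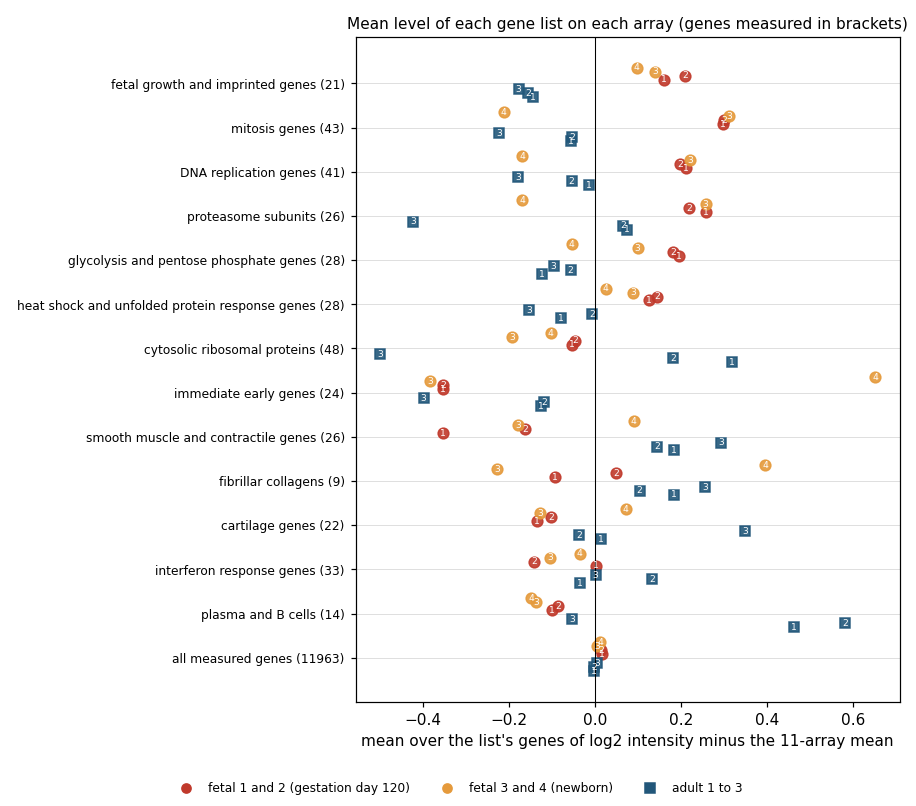
Mean over the genes of each list of log2 intensity minus the 11-array mean (x axis), with 1 symbol per fetal (circles) or adult array (squares) carrying the array number. Fetal and adult arrays are apart for the fetal growth, contractile, heat shock and plasma cell lists, and only just for glycolysis genes and for all measured genes. Fetal array 4 leaves the other fetal arrays for mitosis, DNA replication, proteasome and immediate early genes. Adult array 3 leaves the other adult arrays for proteasome, ribosomal protein and plasma cell genes.

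Other housekeeping lists had no call. Of 26 proteasome subunits 24 were higher in the fetal mean, with a median of 0.25, the highest of the function lists. Fetal arrays 1 to 3 had mean deviations of 0.26, 0.22 and 0.26 and fetal array 4 of -0.17, while adult arrays 1 and 2 had 0.075 and 0.065 and adult array 3 had -0.42. The median was 0.11 without adult array 3 and 0.37 without fetal array 4. PSMA1 alone lay apart, above the adults, beside 4.23% of all genes. Of 28 glycolysis and pentose phosphate genes 23 were higher, with a median of 0.14. The enzymes PKM and HK1 lay apart above the adults, beside 4.23% of all genes. Of 28 chaperones and genes of the unfolded protein response 20 were higher, with a median of 0.12, and 5 lay apart above the adults, beside 4.23% of all genes, namely HSPA4, PDIA4, HSPD1, CALR and HSP90AB1. Of 48 cytosolic ribosomal proteins 33 were lower, with a median of -0.093, but the adult arrays held both extremes, with mean deviations of 0.32, 0.18 and -0.50 around the fetal range of -0.19 to -0.046. The median of the ribosomal list was 0.074 without adult array 1 and -0.35 without adult array 3. Infant arrays 1 and 2 had mean deviations of 0.20 and 0.36 for this list, and infant arrays 3 and 4 of -0.079 and -0.098. Of 24 immediate early genes, a class of quickly induced transcription factors and regulators, 15 were higher in the fetal mean, but fetal array 4 had a mean deviation of 0.65 and the other fetal arrays of -0.38 to -0.35, below adult arrays 1 and 2.

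Several called genes belonged to metabolism, transport and trafficking. AKR1B10, an aldo-keto reductase that detoxifies aldehydes and reduces retinal, rose to 11.12, 11.57, 11.30 and 10.97 from 9.58, 9.99 and 9.13 (difference 1.67, interval 1.22 to 2.12, limma adjusted p = 0.00758). S100A4, a calcium-binding protein of motile mesenchymal cells, rose to 11.02, 10.62, 10.87 and 10.78 from 8.40, 8.66 and 9.56, a gap of 1.06 and the widest on the higher side (limma adjusted p = 0.0273). The fetal values of S100A4 were close together, and the adult spread came from array 3. Of 16 S100 genes 7 were higher, and S100A10 and S100A13 also lay apart above the adults, beside 4.23% of all genes. SLC47A1, an exporter of organic cations, fell to 7.10, 7.09, 7.19 and 7.26 from 7.67, 7.88 and 7.90, at a dim level (limma adjusted p = 0.0372). It and AKR1B10 were the calls among 31 NRF2 and detoxifying genes, beside 0.184% of all genes. Of the 31 genes 15 were higher. PLPP1, an ecto-phosphatase of lysophosphatidate and related lipids, fell to 8.27, 7.97, 8.12 and 7.98 from 9.30, 9.07 and 8.82, and STX1A, a syntaxin of membrane fusion, rose to 8.81, 8.78, 8.66 and 8.67 from 7.70, 8.01 and 8.15 (limma adjusted p = 0.0389 and 0.0445). The other PLPP1 probe set overlapped (difference -0.32). STX1A had one of the tightest fetal groups, with an SD of 0.07. BBLN fell to 9.39, 9.36, 9.19 and 9.64 from 10.04, 10.15 and 10.00 on one probe set (limma adjusted p = 0.0381), and its other probe sets overlapped between the groups.

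Beyond the called genes, 70 probe sets had an adjusted p between 0.05 and 0.10, of which 49 were higher and 21 lower in the fetal arrays. The 24 genes of smallest p among them, with adjusted p from 0.0517 to 0.0697, comprised 18 that were higher and 6 that were lower. Each was read on its probe set of smallest p. For IGKC, PTN, DPYSL3, HEXIM1, GLIPR1 and HLA-C another probe set of the gene was brighter. Of the 18 higher genes, 4 that bind RNA are given here as single genes, since no list of such genes was counted and none of them passed. NCL, the nucleolin of ribosome assembly, read 11.55, 11.54, 11.49 and 11.32 against 10.56, 10.88 and 10.73. HNRNPD, which binds AU-rich messages, read 11.70, 11.59, 11.63 and 11.13 against 10.75, 10.94 and 10.59. TARDBP read 10.15, 10.28, 10.41 and 9.90 against 9.32, 9.75 and 9.30. For HNRNPD and TARDBP fetal array 4 was the lowest fetal array, as it was for SNRPA, a protein of the U1 splicing particle, at 10.50, 10.28, 10.55 and 9.86 against 9.40, 9.63 and 8.86. HEXIM1, an inhibitor of the elongation kinase of RNA polymerase II, was even in the fetal group at 8.93, 8.79, 8.73 and 8.89, against 8.23, 8.28 and 7.62.

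**Figure D4:**
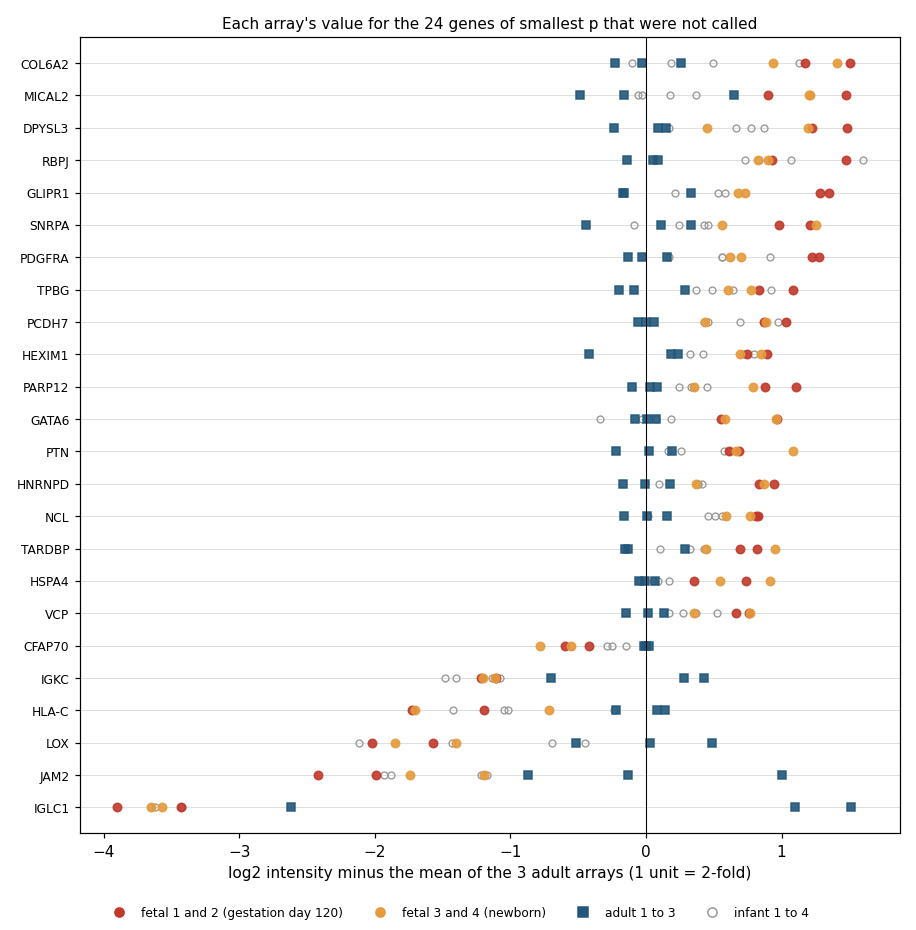
Log2 intensity of each array minus the mean of the 3 adult arrays (x axis) for the 24 genes of smallest p that were not called (y axis), with symbols as in the plot of called probe sets. Each gene is drawn by its probe set of smallest p. On these the fetal and adult arrays do not overlap for any of the 24, and the spread is wider among the adult arrays for IGLC1 and JAM2 and among the fetal arrays for DPYSL3 and PARP12.

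Regulators of transcription and of the cytoskeleton were also in this tier. GATA6, a transcription factor of mesodermal tissue, read 8.02, 7.61, 7.63 and 8.01 against 6.97, 7.06 and 7.12, with no infant array as high as the lowest fetal one. TWIST1, a factor that keeps cells mesenchymal, was outside this tier and read 8.92, 8.92, 8.73 and 9.07 against 8.28, 8.35 and 8.00 (limma adjusted p = 0.161). MICAL2, an enzyme that oxidises actin, read 9.79, 9.22, 9.52 and 9.53 against 8.16, 7.84 and 8.97, where adult array 3 was nearest to the fetal range. DPYSL3, a cytoskeletal protein of growth cones, read 9.14, 8.88, 8.85 and 8.11 against 7.74, 7.42 and 7.81. The heparin-binding growth factor PTN read 7.77, 7.84, 8.24 and 7.82 against 7.18, 6.94 and 7.35. VCP, an ATPase that extracts proteins for degradation, read 10.64, 10.73, 10.74 and 10.33 against 10.11, 9.83 and 9.99, and the chaperone HSPA4 read 8.40, 8.78, 8.95 and 8.58 against 8.11, 8.03 and 7.99. PARP12, GLIPR1 and TPBG were the remaining genes higher in the fetal arrays, by 0.78, 1.01 and 0.82, and CFAP70 was lower by 0.59.

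Some larger differences had no overlap and yet a weaker test, because values within a group were uneven. KRT18, a keratin of simple epithelia that cultured stromal cells can express, read 10.79, 9.74, 9.52 and 10.07 against 8.63, 8.32 and 8.07 (difference 1.69, limma adjusted p = 0.194). The infant arrays, which share in the estimate of the spread, held 9.89 and 9.86 in arrays 1 and 2 and 7.97 and 8.10 in arrays 3 and 4. IGFBP6, a binder of IGF2, read 10.57, 9.73, 9.64 and 10.34 against 8.54, 8.47 and 9.30 (limma adjusted p = 0.0831). CAV1, the coat protein of caveolae, read 11.46, 11.34, 11.22 and 10.60 against 10.12, 10.06 and 9.70 (limma adjusted p = 0.130). GAS1, a membrane protein that slows growth, was lower at 7.63, 8.13, 8.38 and 8.60 against 10.32, 10.38 and 8.70, and adult array 3 lay just above the fetal arrays (limma adjusted p = 0.0831). For EIF5A and TIPARP, higher by 1.31 and 1.25, the gaps were 0.08 and 0.14 and the fetal SDs were 0.94 and 0.87.

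Immunoglobulin genes, which plasma cells transcribe, read high in adult arrays 1 and 2 and near the fetal level in adult array 3. IGLC1, a light chain constant region, read 7.82, 8.29, 8.07 and 8.15 in the fetal and 12.82, 13.23 and 9.10 in the adult arrays (difference -3.64, interval -5.07 to -2.20, limma adjusted p = 0.0561). The fit takes the same spread in all groups, but the SD was 2.27 among adult and 0.20 among fetal arrays. The interval and p may therefore overstate the precision. IGHM, the mu heavy chain, fell to 7.17, 6.99, 7.24 and 7.12 from 9.13, 9.34 and 7.71 (limma adjusted p = 0.0389), and IGKC read 7.43, 7.54, 7.44 and 7.53 against 8.92, 9.07 and 7.94 (limma adjusted p = 0.0517). The brightest probe set of IGKC is another one, which overlapped between the groups and was not called (limma adjusted p = 0.194). The fall of IGHM rested on adult arrays 1 and 2 and was -2.10 without adult array 3. The other IGHM probe sets did not lie apart and did not pass (limma adjusted p from 0.217 to 0.951), and one of them differed by 0.07 in the opposite direction. These probe sets can bind several related chains. Of 14 measured plasma and B cell markers 10 were lower in the fetal mean, with a mean deviation over the list of 0.46, 0.58 and -0.053 in adult arrays 1 to 3 and of -0.15 to -0.085 in the fetal arrays. JCHAIN, the joining chain of secreted antibodies, lay apart at a dim level, between 6.60 and 6.89 in fetal and between 6.97 and 7.49 in adult arrays. In bulk RNA, fewer cells of a type and less RNA per cell cannot be told apart. The part of such cells in the other differences was not tested. A further fit, added once the values had been seen, kept adult array 3 as the only adult and assumed that it varies like the other groups. It called 44 probe sets, of which 6 were among the 29.

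HLA-B, HLA-C and B2M, which serve class I antigen presentation, lay apart below the adults and did not pass. They were members of the interferon response list and were not counted as a list of their own. HLA-C, by the probe set of smallest p, read 11.03, 10.50, 10.52 and 11.52 against 12.01, 12.31 and 12.37 (difference -1.34, limma adjusted p = 0.0697). HLA-B read 11.88, 11.36, 11.28 and 11.86 against 12.02, 12.72 and 12.68, and B2M, the shared light chain of class I molecules, read 12.74, 12.20, 12.25 and 12.77 against 13.14, 13.13 and 12.94 (limma adjusted p = 0.327 and 0.304). Fetal arrays 1 and 4 were nearest to the adults for HLA-B and B2M. The probe sets of HLA-B and HLA-C can bind related class I genes, which the monkey carries in many copies, so that single genes cannot be resolved. Of 33 interferon response genes, which included the class I genes, 20 were lower in the fetal mean with a median of -0.070. ISG15 and IFITM3 lay apart above the adults and HLA-B, HLA-C, B2M and OASL below, beside 4.23% and 4.27% of all genes. OAS1, IFIT1 and MX1 differed by -0.19, -0.07 and 0.04.

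Markers of the other cell types that marrow or flushed bone could hold had no call. For macrophages and leukocytes 6 of 17 were higher in the fetal mean, for erythroid cells 5 of 11, for endothelium 8 of 14, for skeletal muscle 7 of 17 and for neural and glial cells 6 of 13. Fetal array 1 had the highest mean deviation for the neural and glial list, at 0.26, beside 0.10, 0.0043 and -0.0060 in the other fetal arrays and -0.084 to 0.016 in the adults. Among the stromal lineages, 9 of 16 osteoblast genes and 8 of 21 adipocyte genes were higher in the fetal mean. Of 22 cartilage genes 5 were higher and 17 lower, with a median of -0.094. CHI3L1 was the only call and the only member that lay apart, beside 0.184% and 4.27% of all genes. The adult range of the cartilage list was wide, at 0.015, -0.036 and 0.35 in arrays 1 to 3. POSTN, a matrix protein of osteoblasts and fibroblasts, read 8.22, 7.89, 8.04 and 8.42 against 7.42, 7.41 and 7.74, without overlap (limma adjusted p = 0.419). Of 21 HOX genes, which record the position of a tissue along the body, 10 were higher and none was called. HOXD11 and HOXD4 lay apart above the adults and HOXA2 and HOXC10 below, each by no more than 0.34. The shares of all genes lying apart were 4.23% above and 4.27% below.

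The stages within the fetal title were compared with the same adult arrays, which both comparisons share. Gestation day 120 against adult gave 27 called probe sets, 14 higher and 13 lower, and newborn against adult gave 2, both lower and both of CHI3L1. For the brighter of these the difference was -3.12 at gestation day 120 and -2.67 in newborns. CDH2 was higher than in adults by 1.42 and by 0.81 (limma adjusted p = 0.000935 and 0.122), HMGA1 by 1.64 and by 0.88 (limma adjusted p = 0.00581 and 0.447) and PDGFRA by 1.25 and by 0.66 (limma adjusted p = 0.0185 and 0.627). S100A4, COL6A1 and WNT5A differed little by stage, at 1.95 and 1.95, at 1.10 and 1.09 and at 1.37 and 1.46. Between newborn and gestation day 120 arrays themselves no probe set passed in limma, with 402 at an unadjusted p below 0.05, and with the 4 fetal arrays alone none passed either, with 747. CDH2 and HMGA1 were lower in the newborn arrays by a log2 difference of -0.60 and -0.76, CDH6 by -0.89 and GLIPR1 by -0.61, and none of these passed over all probe sets. With 2 arrays per stage, stage and single cultures are hard to separate. The newborn mean lay nearer to the adult mean than the gestation day 120 mean for 20 of the 26 called probe sets and for 19 of the 24 next genes.

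Replicates agreed unevenly across genes. Over all probe sets the median SD was 0.125 among fetal and 0.155 among adult arrays, and over the 29 called probe sets it was 0.258 and 0.229. The gap between the groups, taken as the distance from the nearest fetal to the nearest adult array, was 56.3% of the mean difference in the median over the 26 named called probe sets and 37.7% over the 24 next genes. Fetal array 4 was the fetal array nearest to the adults for 14 of the 26 and again for 14 of the 24, while fetal arrays 1, 2 and 3 were nearest for 3, 3 and 6 of the 26. On the adult side the nearest array was array 1, 2 or 3 for 7, 9 and 10 of the 26. The most even called genes by the SD within the fetal group were NTRK2, STX1A, SLC47A1 and CNN1, with SDs of 0.06 to 0.08, and the least even were PTGDS, the second probe set of CHI3L1 and HMGA1, with 0.64, 0.55 and 0.52.

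Large mean differences also arose where 1 or 2 arrays departed from their group, and these genes overlapped between the groups and were not called. CD9, a tetraspanin of the cell surface, read 11.73, 11.55, 11.39 and 11.28 in the fetal arrays and 9.21, 8.73 and 11.64 in the adult arrays, so that adult array 3 sat among the fetal ones. ACAN, the large proteoglycan of cartilage, read 9.88, 10.98, 10.92 and 12.59 against 8.96, 8.52 and 12.51, with adult array 3 close to fetal array 4. LTBP3, a carrier of latent TGF-beta, read 9.18, 8.84, 8.74 and 9.37 against 7.53, 7.50 and 8.76, with adult array 3 again high. MEST, an imprinted gene of embryonic mesoderm, read 10.42, 10.30, 10.05 and 9.09 against 9.34, 8.80 and 7.37. On the lower side LCN2, a secreted iron-binding lipocalin, read 8.57, 9.38, 9.14 and 10.82 against 10.77, 10.96 and 10.79, so that fetal array 4 alone was at the adult level. FOLR1, a folate receptor, read 7.00, 7.15, 7.06 and 7.02 against 10.25, 8.34 and 7.01, and only adult arrays 1 and 2 stood above the fetal level. The probe set of RPL38 read 8.41, 8.35, 8.38 and 8.15 against 10.76, 9.14 and 8.37.

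**Figure D5:**
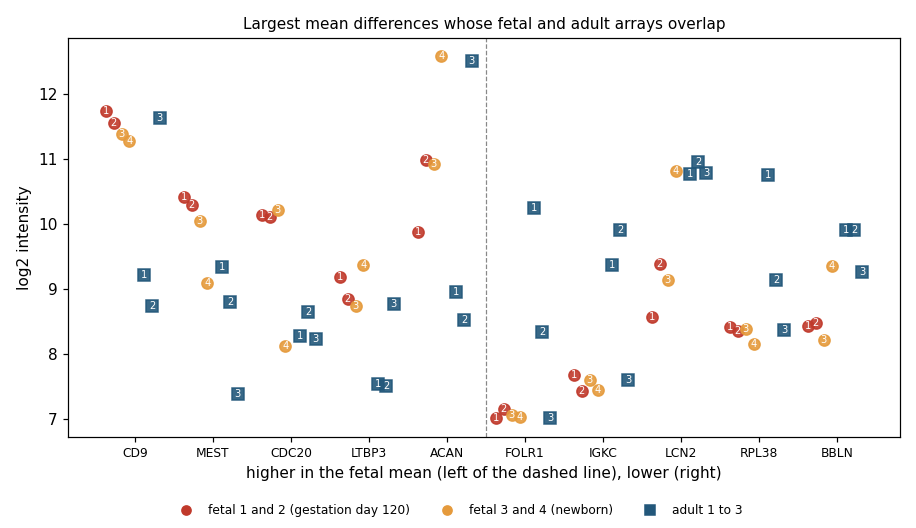
Log2 intensity (y axis) of the 4 fetal (circles) and 3 adult arrays (squares), each carrying its array number, for the 10 probe sets with the largest mean differences whose groups overlap (x axis). Adult array 3 departs from adult arrays 1 and 2 for CD9, LTBP3, ACAN and IGKC, and fetal array 4 from the other fetal arrays for CDC20, MEST and LCN2. IGKC is drawn here by its brightest probe set.

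Adult array 3 also differed in sex-linked genes, which were at 11.23 for XIST, the RNA of the inactive X chromosome, and at 7.81 for the Y-linked RPS4Y1. In the fetal arrays and adult arrays 1 and 2 XIST lay between 7.27 and 8.40 and RPS4Y1 between 11.30 and 12.08. Donor sex is not stated in the labels used, and its part in the differences was not tested. Leaving out adult array 3 did not change the direction of any of the genes named as called.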

How the data were processed

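RNA of 11 cultures had been hybridised to 1-colour human expression arrays, 1 per culture. The authors deposited intensities on a linear scale, summarised per probe set by RMA per the submitters' processing notes, and these were turned into log2 values here without further normalisation. Groups followed the sample titles. All 22215 probe sets were fitted in limma 3.58.1 (R 4.3.3) with 1 mean per titled group over the 11 arrays (8 residual degrees of freedom), moderated standard errors and Benjamini-Hochberg adjustment at 0.05. The fit was tested on simulated data. Platform annotation from GEO, which can be old, gave 1 gene symbol for 19065 probe sets, several for 1043 and none for 2107. Genes in lists were represented by the probe set of highest mean. Named genes were the called ones with 1 symbol, the 24 of next smallest p, the 8 largest uncalled differences in each direction without overlap, the 6 widest gaps and the 5 largest differences with overlap in each direction, identity genes, and, per list, called members and up to 5 of smallest p. Further list members were picked as examples with their values known. The comparison, its members and the gene lists were chosen with earlier results of these data known, so that counts within the lists are descriptions only. Deviations of same-numbered fetal and adult arrays had correlations of 0.068, 0.043 and -0.096. For 2 of fetal arrays 1 to 3 the highest correlation was with the adult array of the same number. Since the correlations were small and no label pairs the arrays, the numbers were not taken as pairs. Alternatives covered the samples fitted, scaling, filters, array weights and leaving out each array. The number of arrays limits the precision.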

Additional observations from a re-analysis of the deposited data

Results flagged for a closer look

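In 5 of 78 named probe sets and 9 of 52 gene lists, 1 of the 4 fetal arrays lay far from the other fetal arrays, by a gap above the critical share of the group's range in Dixon's test. Chance flags about 1 in 20 groups, and the lists share genes and arrays. For SULF1 the value of 8.39 in fetal array 4 lay above the others at 7.62 to 7.68. For RBPJ the value of 11.22 in fetal array 1 lay above 10.57 to 10.67, and for PTN that of 8.24 in fetal array 3 lay above 7.77 to 7.84. For GUSBP11 the value of 7.46 in fetal array 4 lay below 7.71 to 7.73. For CDC20 the value of 8.12 in fetal array 4 lay below 10.11 to 10.22.

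In the 9 lists the array was fetal array 4. Its mean deviation was above the other fetal arrays for cartilage genes (0.072), BMP and ID genes (0.13), secreted cytokines and senescence factors (0.12) and immediate early genes (0.65). It was below them for mitosis genes (-0.21), DNA replication genes (-0.17), oxidative phosphorylation subunits (-0.13), proteasome subunits (-0.17) and sterol and fatty acid synthesis genes (0.013).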

How the results depend on the processing

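The count of 29 called probe sets became 16 with only the 7 fetal and adult arrays in the fit, 120 with array weights and 2 with newborn arrays as the fetal group. It was 44 with adult arrays 1 and 2 left out, a choice made with the values known, and ranged from 4 to 153 when single arrays were left out. With a replicate block it was 221, but no label says that the numbers pair the arrays. It stayed between 27 and 42 with other scaling, the filter on level, moderation with an intensity trend, 1 probe set per gene or gestation day 120 arrays only. No named called gene changed direction. The median of the ribosomal protein list, -0.093, became 0.074 without adult array 1, 0.027 without adult array 2 and 0.41 without both, with a leave-one-out range of -0.35 to 0.074. That of immediate early genes, 0.15, became -0.060 under the replicate block and -0.16 with gestation day 120 arrays only, with a leave-one-out range of -0.21 to 0.22. Causes were not tested. Probe sets dimmer than the median level may hide changes.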
